A study of Mus musculus with 6 samples.

Results

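Transcripts of 10 antioxidant and glutathione enzyme genes were followed in bulk RNA sequencing of B16-F10 cells. B16-F10 is a pigmented melanoma line that arose in C57BL/6 mice. The genes were chosen by name, as mouse glutathione transferases (Gsta2, Gsta4, Gstm1, Gstp1), glutathione peroxidases (Gpx1, Gpx4), the peroxiredoxin Prdx1, the thioredoxin Txn1, the superoxide dismutase Sod1 and the quinone reductase Nqo1, and all 10 were found among the 39179 genes of the count files. Cells labelled Sirpa-KO (3 libraries), a knockout of the gene for SIRPα, a membrane receptor for CD47, were set against cells labelled Sirpa-WT (3 libraries), and no treatment is named for either group. The study asked how steady-state expression differs between the tumour lines. The series text describes cells grown in vitro, whereas the sample labels give the tissue as tumor and the cell line as Pmel. How Sirpa was edited, whether either line is a single clone, and whether replicates were separate cultures are not given in the sources used here, so any p-value here weighs a difference against library-to-library spread, which may be technical.

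Cells detoxify peroxides and reactive chemicals through linked enzyme systems. Superoxide dismutases turn superoxide into hydrogen peroxide, which glutathione peroxidases reduce with glutathione and peroxiredoxins reduce with electrons from thioredoxin. Glutathione transferases join glutathione to electrophiles, and many of these genes, Nqo1 among them, are textbook targets of the transcription factor NRF2. Pigment cells are exposed to such chemistry because melanin synthesis itself passes through reactive quinones.

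One library stood apart from the other 5. The library labelled Sirpa-KO replicate 1 (the deep library in what follows) held 29877270 counts, against 338824 and 367667 counts in the other Sirpa-KO libraries and 343808 to 411695 counts in the Sirpa-WT libraries. Processed pseudogenes, which are intronless gene copies, took 0.177% of its counts. In the other 5, the shallow libraries, they took 26.6% and 26.5% in Sirpa-KO, against 28.7%, 28.6% and 29.7% in Sirpa-WT. Levels are given in CPM, which sets every library total equal. At the shallow depth a single count is worth 2.43 to 2.95 CPM, and a count of 0 allows up to 7.29 to 8.85 CPM, the value of 3 counts; these limits cover counting error only. Sirpa had 1584 counts in the deep library and 6 and 6 counts in the shallow Sirpa-KO libraries, against 12, 7 and 3 counts in the Sirpa-WT libraries (53.0, 17.7 and 16.3 CPM against 29.1, 20.4 and 8.68 CPM). Its level therefore did not separate the groups, and counts over the whole gene check nothing if the edit left the transcript in place, so every direction given here rests on the labels alone. All 7 listed melanocytic markers were detected in every library, with a summed level of 12626 to 15519 CPM in Sirpa-KO and 15960 to 19092 CPM in Sirpa-WT libraries. By CPM, Pmel, Dct and Mitf were lower in both shallow Sirpa-KO libraries than in every Sirpa-WT library. This was so for 11.8% of all genes tested below, without the deep library. The levels of Mlana, Tyr, Tyrp1 and Sox10 overlapped between these groups. In the shallow libraries all 3 hepatocyte and all 3 endothelial markers were at 0 (as were 5 of 6 leukocyte markers, with Lyz2 at up to 5.44 CPM), 1 of 4 fibroblast markers was at 0 with a summed level of up to 10.9 CPM, and 2 of 3 epithelial markers were at 0 with up to 2.95 CPM. The part of the marker levels, the pseudogene share or the depth in the results for the 10 genes was not tested.

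Of the 10 genes, Gsta2 fell and Gpx1 rose in the 2 shallow Sirpa-KO libraries relative to the 3 Sirpa-WT libraries. None of the other 8 was called, and not all of them had enough counts to be tested. Genes were tested with edgeR's quasi-likelihood method and called at a Benjamini-Hochberg adjusted p under 0.05 over all genes tested. In this comparison of 5 libraries 5.84% of 5510 tested genes were called, 1.32% as higher and 4.52% as lower in Sirpa-KO. Only 7 of the 10 genes had enough counts to pass the filter (about 28.9 CPM), and Gsta4, Gstm1 and Nqo1 fell below it. Gpx1 reached that level in both shallow Sirpa-KO libraries, but in Sirpa-WT only in replicate 3. It thus entered the test through the group where it is high. With the deep library included, none of the 10 genes was called and neither was any other gene (0% of 5397 tested), although 344 (6.37%) had an unadjusted p under 0.05, DESeq2 called 1 gene and limma voom called 1283. Without the deep library 20.8% of tested genes had an unadjusted p under 0.05. Among the 7 genes that passed the filter, the groups did not overlap over all 6 libraries for Gsta2 (lower in Sirpa-KO) or for Gpx1 and Txn1 (higher). This was so for 30.7% of all tested genes, 20.4% higher and 10.2% lower. Gsta4, below the filter, was also lower in every Sirpa-KO library, on 0 to 2 counts in the shallow libraries. In bulk libraries fewer cells of a type and less RNA per cell cannot be told apart.

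**Figure D1:**
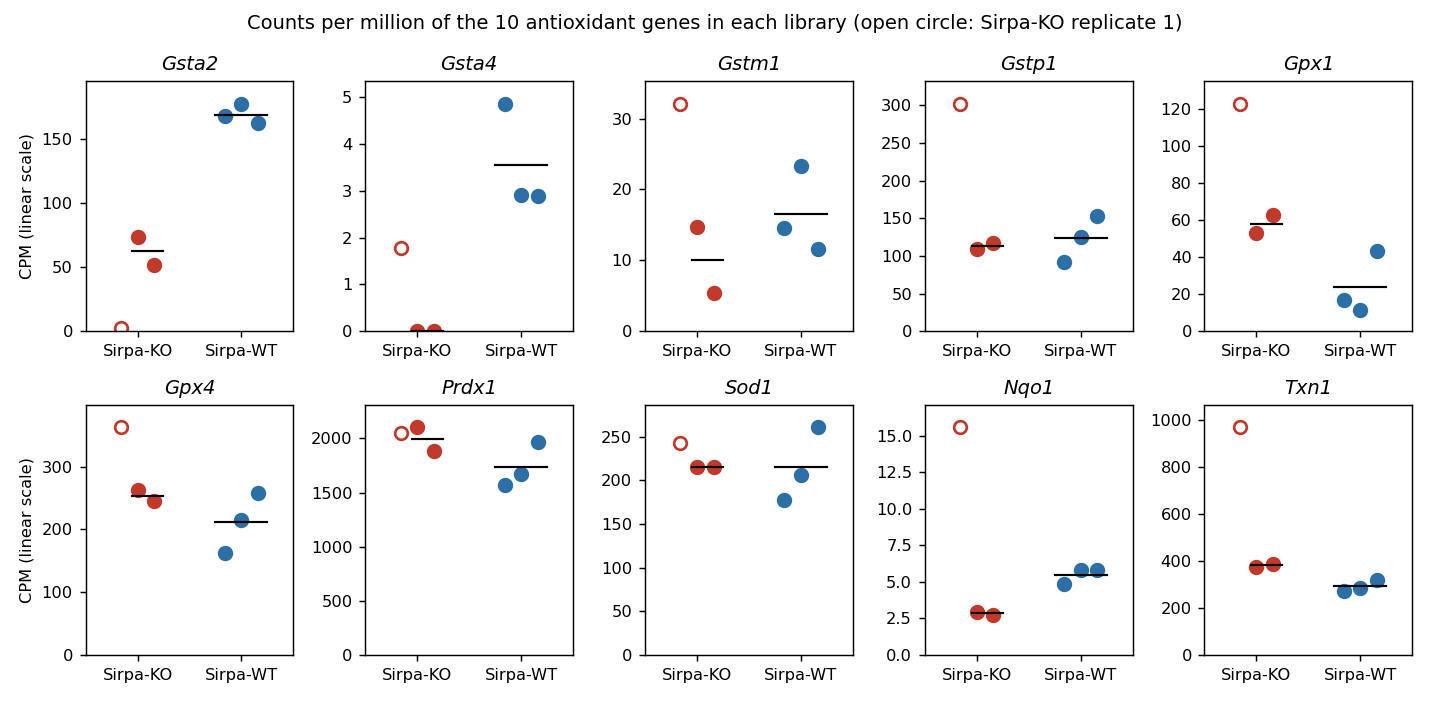
Level of each of the 10 genes in CPM (linear scale, each panel from 0), with Sirpa-KO libraries left (red) and Sirpa-WT libraries right (blue). Points are libraries, the open circle is the deep library and black lines are means of the 2 shallow Sirpa-KO and the 3 Sirpa-WT libraries; Gsta2 is lower in every Sirpa-KO library and Gpx1 is higher in every one.

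Gsta2 (ENSMUSG00000057933), an alpha-class glutathione transferase best known from liver, lies on the minus strand at chr9:78331018-78355788 (GRCm38) with 9 merged exons. Its level was 73.8 and 51.7 CPM in the shallow Sirpa-KO libraries (25 and 19 counts), against 168, 177 and 162 CPM in the Sirpa-WT libraries (69, 61 and 56 counts). Both Sirpa-KO values lay below all 3 Sirpa-WT values, as was so for 11.8% of all tested genes without the deep library. The Sirpa-KO mean was 62.7 ± 15.6 CPM (SD, n = 2) and the Sirpa-WT mean 169 ± 7.78 CPM (SD, n = 3). On the log2 scale the change was -1.55 ± 0.24 (SE; edgeR adjusted p = 3.71e-08), and this was the smallest p among the 10 genes. Over the 18 alternatives that gave it an adjusted p, the log2 fold change ran between -2.17 and -1.32, and only the fit to all 6 libraries ended the call (-2.17 ± 1.12, edgeR adjusted p = 0.574). In the deep library Gsta2 had 79 counts, or 2.64 CPM, below every shallow library. On a log2 scale the deep library's value over the average of the shallow libraries was -5.34, and 1167 of 5510 tested genes (21.2%) had a ratio below -4, or 58 of 4295 (1.35%) when protein-coding genes alone are counted. The other 9 genes had ratios of -0.21 to 1.71.

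The Gsta2 counts are uncertain because the gene is nearly identical to its neighbours in the same cluster. Of its 1171 different 25-base words in GENCODE M21 transcripts, 405 (34.6%) occurred in no other gene, 62.5% occurred in other genes not annotated as pseudogenes, chiefly the paralogues Gsta1 (chr9:78230656-78242684) and Gm10639 (chr9:78289923-78305525), and 6.75% occurred in pseudogenes, chiefly Gm8074. The coding sequence of Gsta2 was 98.0% identical to that of Gsta1 and 98.5% identical to that of Gm10639 over 666 bases. The first 75 coding bases are shown to make plain how little separates a Gsta2 read from a paralogue's read, with bases that differ from Gsta2 in capitals.
Gsta2: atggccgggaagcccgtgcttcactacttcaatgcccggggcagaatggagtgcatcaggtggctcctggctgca
Gsta1: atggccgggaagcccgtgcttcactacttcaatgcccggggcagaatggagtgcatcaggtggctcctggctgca
Gm10639: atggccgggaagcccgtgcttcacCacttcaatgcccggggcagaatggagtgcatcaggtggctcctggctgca
Over this stretch Gsta1 carries no difference from Gsta2 and Gm10639 carries 1. Gsta1 itself had 4 and 3 counts in the shallow Sirpa-KO libraries, against 1, 5 and 2 counts in the Sirpa-WT libraries, and 379 counts in the deep library. It therefore took 82.8% of the counts of the pair in the deep library and 13.8% and 13.6% in the shallow Sirpa-KO libraries, against 1.43%, 7.58% and 3.45% in the Sirpa-WT libraries. Counts given to Gsta2, Gsta1, Gm10639 and Gm8074 together came to 88.5 and 65.3 CPM in the shallow Sirpa-KO libraries, against 177, 198 and 171 CPM in the Sirpa-WT libraries. The groups thus also stood apart for the sum, as did those of 11.8% of all tested genes in that direction. The deep library had 15.5 CPM for the sum. How the authors' alignment divided reads among these copies was not tested.

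The other glutathione transferases did not pass the test. Gstp1 (ENSMUSG00000060803, chr19:4035411-4037912, minus strand, GRCm38), the pi-class enzyme, had 109 and 117 CPM in the shallow Sirpa-KO libraries, against 92.3, 125 and 153 CPM in the Sirpa-WT libraries. The ranges overlapped, and the log2 fold change was -0.23 ± 0.22 (SE; edgeR adjusted p = 0.609). It was -0.42 without Sirpa-WT replicate 1 and -0.039 without Sirpa-WT replicate 3. In the deep library it had 302 CPM, which turned the sign of the fold change over 6 libraries to 0.35 ± 0.47 (SE; edgeR adjusted p = 0.758). Gstm1 (ENSMUSG00000058135, chr3:108012255-108017973, minus strand), a mu-class enzyme, had only 5 and 2 counts in the shallow Sirpa-KO libraries, against 6, 8 and 4 counts in the Sirpa-WT libraries, and 959 counts (32.1 CPM) in the deep library. In a fit without the count filter its log2 fold change was -0.85 ± 0.65 (SE; edgeR adjusted p = 0.795). Gsta4 (ENSMUSG00000032348, chr9:78191966-78209348, plus strand), which acts on the lipid peroxidation product 4-hydroxynonenal, had 0 and 0 counts in the shallow Sirpa-KO libraries, against 2, 1 and 1 counts in the Sirpa-WT libraries. Those counts are at or under the limit that a count of 0 allows, so no fold change is given. The deep library had 53 Gsta4 counts, or 1.77 CPM, a level that the shallow libraries could not have resolved.

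Gstp1 shares 40.2% of its 25-base words with other genes, chiefly its tandem copy Gstp2 (chr19:4040351-4042165), with 98.1% identity over 630 coding bases. The first 75 coding bases are shown because this stretch tells the copies apart at 6 bases, in capitals, although over the whole coding sequence the identity is close to that of the alpha-class copies.
Gstp1: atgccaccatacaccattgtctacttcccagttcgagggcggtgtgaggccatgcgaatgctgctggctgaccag
Gstp2: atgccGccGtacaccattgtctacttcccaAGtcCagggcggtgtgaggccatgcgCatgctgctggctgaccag
Gstp2 took 0 and 2 counts in the shallow Sirpa-KO libraries, against 2, 1 and 1 counts in the Sirpa-WT libraries, so at most 5.0% of the counts of the pair were given to the copy in any library. Gstm1 shares 19.5% of its words with other genes. Gstm3, with which it shares most, had 0 counts in all 6 libraries, but others took counts. Gm6665, which shares 25.6% of its own words with Gstm1, had 5 and 9 counts in the shallow Sirpa-KO libraries and 6 in the deep library, against 14, 16 and 8 counts in the Sirpa-WT libraries. Gstm2 had 4 and 2 counts in the shallow Sirpa-KO libraries and 1696 in the deep library, against 6, 6 and 7 counts in the Sirpa-WT libraries. The Gstm1 counts are therefore uncertain as well.

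Gpx1 (ENSMUSG00000063856), the cytosolic selenoprotein that reduces hydrogen peroxide with glutathione, lies on the plus strand at chr9:108339080-108340338 (GRCm38) in 2 exons. Its level was 53.1 and 62.6 CPM in the shallow Sirpa-KO libraries (18 and 23 counts), against 17.0, 11.6 and 43.4 CPM in the Sirpa-WT libraries (7, 4 and 15 counts). Both Sirpa-KO values lay above all 3 Sirpa-WT values, of which replicate 3 was the nearest. The same was so for 26.3% of all tested genes without the deep library. The Sirpa-KO mean was 57.8 ± 6.67 CPM (SD, n = 2) and the Sirpa-WT mean 24.0 ± 17.0 CPM (SD, n = 3). On the log2 scale the change was 1.16 ± 0.37 (SE; edgeR adjusted p = 0.0311). The gene entered this test through the Sirpa-KO libraries, since in Sirpa-WT only replicate 3 reached the filter level of about 28.9 CPM. The deep library lay higher still, at 123 CPM, and the fold change over all 6 libraries was 1.57 ± 0.62 without a call (SE; edgeR adjusted p = 0.574). The direction held in all 18 alternatives that gave an adjusted p (0.86 to 1.86), but the call was lost in 10 of them, with adjusted p between 0.0751 and 0.635. Among these were leaving out either shallow Sirpa-KO library (adjusted p = 0.126 without replicate 2 and 0.318 without replicate 3), leaving out Sirpa-WT replicate 1 (0.144) or replicate 2 (0.198), and a looser or absent count filter (0.0751 and 0.102). Without Sirpa-WT replicate 3 the value was 1.86 ± 0.45, and it was still called (edgeR adjusted p = 0.00197). Of the 25-base words of Gpx1, 0.20% occurred in other genes of the count files and none in annotated pseudogenes among them.

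Gpx4 (ENSMUSG00000075706, chr10:80047166-80056439, plus strand), the peroxidase that reduces lipid peroxides in membranes and is known for restraining ferroptosis, did not pass the test. It had 263 and 245 CPM in the shallow Sirpa-KO libraries and 363 CPM in the deep library, against 163, 215 and 258 CPM in the Sirpa-WT libraries. The shallow Sirpa-KO values lay within or just above the Sirpa-WT range, and the log2 fold change was 0.15 ± 0.17 (SE; edgeR adjusted p = 0.675). None of the 25-base words of Gpx4 occurred in another gene or pseudogene of the count files that has GENCODE M21 transcripts. No sharing of its reads was thus found at that word length, although genes outside the count files were not searched.

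Prdx1 (ENSMUSG00000028691, chr4:116685544-116700822, plus strand), an abundant cytosolic peroxiredoxin, had the highest level per length of the 10 genes in all 5 shallow libraries. It had 2101 and 1885 CPM in the shallow Sirpa-KO libraries and 2052 CPM in the deep library, against 1569, 1675 and 1965 CPM in the Sirpa-WT libraries. The groups overlapped, and the log2 fold change was 0.080 ± 0.094 (SE; edgeR adjusted p = 0.683). This was the narrowest error among the 7 tested genes, on 576 to 712 counts per shallow library.

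Reads of Prdx1 can also match processed pseudogenes, with which it shares 16.5% of its 25-base words. The 2 copies that share at least 20% of their own words with it were Gm7204 (chr16:48218605-48219204) and Gm21399 (chr8:129252998-129253597), which were 97.5% and 98.3% identical to Prdx1 over its 597 coding bases. Each differs from Prdx1 at 1 base (capital) in the first 75 coding bases, shown because a read from such a stretch is told apart by that base alone.
Prdx1: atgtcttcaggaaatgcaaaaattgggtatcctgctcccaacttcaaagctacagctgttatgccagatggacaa
Gm7204: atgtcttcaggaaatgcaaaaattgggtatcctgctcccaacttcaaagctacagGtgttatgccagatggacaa
Gm21399: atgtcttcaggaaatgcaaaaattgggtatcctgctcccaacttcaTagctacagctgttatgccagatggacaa
A further processed pseudogene, Gm15974, shares 15.6% of its words with Prdx1 and was left out of the sums. It had 21 and 16 counts in the shallow Sirpa-KO libraries and 0 in the deep library, against 20, 16 and 25 counts in the Sirpa-WT libraries. Of the counts given to Prdx1, Gm7204 and Gm21399, both pseudogenes took 32.1% and 34.3% in the shallow Sirpa-KO libraries, against 39.1%, 36.3% and 36.2% in the Sirpa-WT libraries. Their share in the deep library was 0.85%. In the shallow libraries most of these counts went to Gm7204, which had 284 and 301 counts in Sirpa-KO, against 365, 286 and 336 counts in Sirpa-WT. Gm21399 took more in the deep library, with 425 counts beside 103 for Gm7204. Summed over the gene and these 2 pseudogenes, the shallow Sirpa-KO libraries averaged 2980 ± 160 CPM (SD, n = 2) and the Sirpa-WT libraries 2762 ± 276 CPM (SD, n = 3). With the counts summed, the log2 fold change of Prdx1 was -0.010 (edgeR adjusted p = 0.964). Its sign thus differed from that of the gene alone, and neither value was called. How reads were divided between Prdx1 and these copies was not tested.

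**Figure D2:**
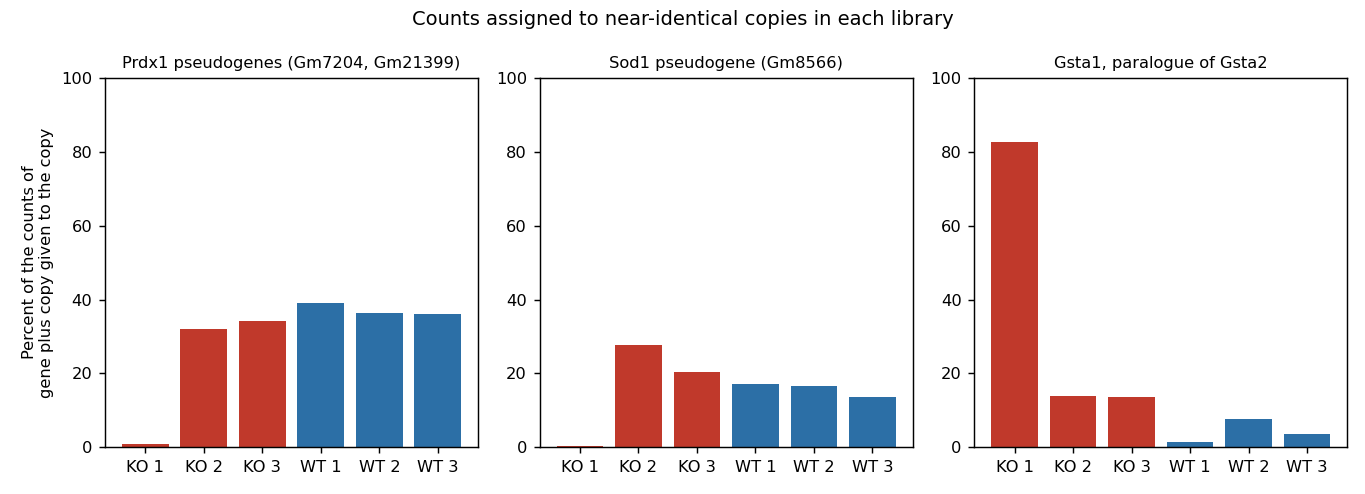
Percent of the counts of a gene plus its copies that the authors' counting gave to the copies, by library (Sirpa-KO red, left; Sirpa-WT blue, right; axis from 0 to 100%). The deep library (KO 1) stands at 0.85% for Prdx1 and 0.37% for Sod1, and at 82.8% for Gsta1.

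Txn1 (ENSMUSG00000028367, chr4:57943373-57956411, minus strand), cytosolic thioredoxin, supplies the electrons that peroxiredoxins use. It had 375 and 389 CPM in the shallow Sirpa-KO libraries (127 and 143 counts), against 274, 285 and 318 CPM in the Sirpa-WT libraries (113, 98 and 110 counts). The groups did not overlap, but neither did those of 38.1% of all tested genes, and the log2 fold change of 0.27 ± 0.15 was not called (SE; edgeR adjusted p = 0.308). The deep library had 969 CPM, and the 6-library fold change was 0.81 ± 0.45 (SE; edgeR adjusted p = 0.574). Removing the trend of each library on the ratio of the deep library to the others left a log2 fold change of 0.048 for Txn1. None of its 25-base words occurred in another gene or pseudogene of the count files that has GENCODE M21 transcripts.

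Sod1 (ENSMUSG00000022982, chr16:90220742-90226322, plus strand), the cytosolic copper and zinc superoxide dismutase, had nearly equal mean CPM in the shallow Sirpa-KO and the Sirpa-WT libraries. It had 215 and 215 CPM in the shallow Sirpa-KO libraries and 242 CPM in the deep library, against 177, 207 and 260 CPM in the Sirpa-WT libraries. All Sirpa-KO values lay inside the Sirpa-WT range, and the log2 fold change was -0.11 ± 0.18 (SE; edgeR adjusted p = 0.795). The test rescaled the library totals, whereas library size alone, as in CPM, gave a log2 fold change of 0.030. Sod1 shares 6.23% of its words with pseudogenes, a share taken over all GENCODE M21 transcripts of the gene, which are longer in sum than the exons counted. Its processed pseudogene Gm8566 (chr6:67205619-67206083) was 97.8% identical over 462 coding bases. This copy took 27.7% and 20.2% of the summed counts in the shallow Sirpa-KO libraries, against 17.0%, 16.5% and 13.5% in the Sirpa-WT libraries. The shares did not overlap between these groups, although they rest on 14 to 28 counts each, and the deep library had a share of 0.37%. The shares of the Prdx1 pseudogenes did not overlap either, but in the opposite direction. By CPM, the groups did not overlap for 38.1% of all tested genes, and whether the shares differ by group was not tested. For gene and pseudogene together the shallow Sirpa-KO libraries averaged 284 ± 20.4 CPM (SD, n = 2) and the Sirpa-WT libraries 254 ± 44.0 CPM (SD, n = 3), with a log2 fold change of 0.046 (edgeR adjusted p = 0.915).

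Nqo1 (ENSMUSG00000003849, chr8:107388225-107403206, minus strand), which reduces quinones by a pair of electrons, was hardly detected. It had 1 and 1 counts in the shallow Sirpa-KO libraries, against 2, 2 and 2 counts in the Sirpa-WT libraries. These lie under the limit that a count of 0 allows, so no fold change is given and no difference was detectable at this depth. In the deep library Nqo1 had 465 counts, or 15.6 CPM.

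**Figure D3:**
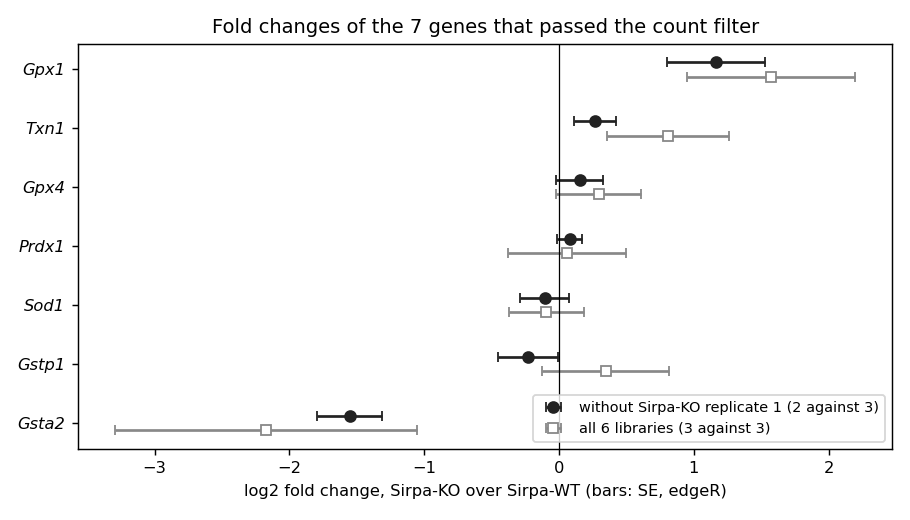
Log2 fold change, Sirpa-KO over Sirpa-WT, of the 7 genes that passed the count filter (edgeR; bars are SE), without the deep library (filled circles) and with all 6 libraries (open squares). Gsta2 lies at -1.55 and Gpx1 at 1.16 without the deep library, and the bars of the 6-library fit are wider for all 7 genes.

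Per length of the counted exons, the 10 genes spanned a wide range of levels. In the shallow Sirpa-KO libraries the mean level was 655 ± 50.3 CPM per kilobase for Prdx1 (SD, n = 2), then 363 ± 9.50 for Txn1 and 333 ± 0.64 for Sod1. Below these came Gstp1 at 152 ± 7.37 and Gpx4 at 147 ± 7.34 CPM per kilobase, whose ranges overlapped, and Gpx1 at 55.6 ± 6.41 and Gsta2 at 53.3 ± 13.3, whose ranges overlapped too. Gstm1, Nqo1 and Gsta4 were lowest, at 7.24, 1.83 and 0 CPM per kilobase. In the Sirpa-WT libraries the order began with Prdx1 at 571 ± 67.3 CPM per kilobase (SD, n = 3), Sod1 at 332 ± 65.3 and Txn1 at 278 ± 21.8, of which Sod1 and Txn1 overlapped. Gstp1 at 166 ± 41.1, Gsta2 at 144 ± 6.61 and Gpx4 at 123 ± 27.6 CPM per kilobase overlapped one another there. Gpx1 at 23.1 ± 16.3 and Gstm1 at 11.8 ± 4.36 also overlapped, ahead of Gsta4 at 3.71 and Nqo1 at 3.53. Gsta2 thus stood among the middle genes in the Sirpa-WT libraries, all of them shallow, and beside Gpx1 in the shallow Sirpa-KO libraries. In the deep library Txn1 led at 922 CPM per kilobase, followed by Prdx1 at 674, Gstp1 at 406 and Sod1 at 375, while Gsta2 was at 2.25.

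A wider list of 88 genes of the same chemistry, grouped into 8 roles, was read in the same 5-library fit. Of these, 42 passed the filter, 1 rose (Gpx1), 2 fell (Gsta2 and Idh1) and 39 did not pass the test, beside 5.84% called among all tested genes. The median log2 fold change was 0.085 over the 42 genes and 0.013 over all tested genes, and 26 of the 42 had a positive value. With all 6 libraries 41 list genes were tested and none was called.

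Idh1 (chr1:65158616-65186479), the cytosolic isocitrate dehydrogenase that makes NADPH, was the third gene called. It had 266 and 231 CPM in the shallow Sirpa-KO libraries, against 403, 375 and 356 CPM in the Sirpa-WT libraries. The groups did not overlap, as was so in this direction for 11.8% of all tested genes. The log2 fold change was -0.73 ± 0.16 (SE; edgeR adjusted p = 0.000314). The deep library had 104 CPM, below all others. The call was lost without Sirpa-KO replicate 3 (-0.64, edgeR adjusted p = 0.0794) and when the trend on the deep library's ratio was removed (-0.44, edgeR adjusted p = 0.130), as well as with all 6 libraries (-1.06, edgeR adjusted p = 0.574).

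**Figure D4:**
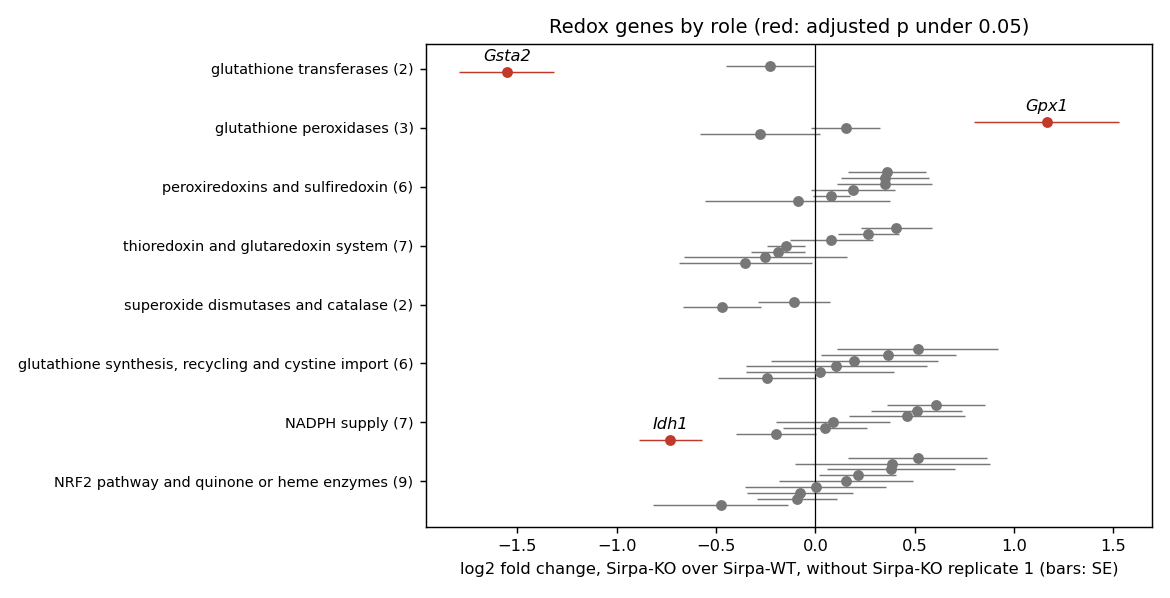
Log2 fold change, Sirpa-KO over Sirpa-WT without the deep library (edgeR; bars are SE), of the 42 tested genes of the wider list, by role with the number tested in brackets. Red marks adjusted p under 0.05: Gsta2 and Idh1 lie left of 0 and Gpx1 lies right of it.

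No gene of the other roles was called. Among 6 tested peroxiredoxin and sulfiredoxin genes the median log2 fold change was 0.27, and 5 were positive. The median over all tested genes was 0.013. Of the superoxide dismutases and catalase, 2 genes were tested, with a median of -0.29 and 0 positive. In the thioredoxin and glutaredoxin system 3 of 7 genes were positive, with a median of -0.15. Over the shallow libraries its most abundant gene per length was Glrx3, an iron-sulfur cluster glutaredoxin, at 1031 CPM per kilobase in the shallow Sirpa-KO libraries and 1051 in the Sirpa-WT libraries (log2 fold change -0.15 ± 0.095 SE; edgeR adjusted p = 0.390). The deep library had 268 CPM of Glrx3, against 1654 to 1844 CPM in the shallow libraries. The role of glutathione synthesis, recycling and cystine import had 6 tested genes with a median of 0.15. Over the shallow libraries its most abundant gene per length, Slc3a2, the heavy chain of the cystine importer, had 85.6 and 92.5 CPM in the shallow Sirpa-KO libraries, against 104, 72.7 and 113 CPM in the Sirpa-WT libraries. Of 9 tested NRF2 pathway, quinone and heme genes, 6 were positive, with a median of 0.16. Sqstm1, an autophagy receptor that binds the NRF2 inhibitor KEAP1, was the most abundant of them per length in the shallow libraries. It had 186 and 185 CPM in the shallow Sirpa-KO libraries, against 141, 151 and 150 CPM in the Sirpa-WT libraries (log2 fold change 0.21 ± 0.20 SE; edgeR adjusted p = 0.587). Over the 5 shallow libraries Gstp1, Gpx4, Prdx1, Sod1 and Idh1 were the most abundant genes per length of their roles. Idh1 in the deep library was at 41.2 CPM per kilobase, below Taldo1 at 106, Idh2 at 90.5 and G6pdx at 75.7.

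The protein-coding genes whose levels over the 5 shallow libraries ran most like those of Gsta2, among 4294 compared, were Gna12, Cyp51 and Nsdhl. Their root mean square differences from Gsta2 in centred log2 CPM were 0.14, 0.18 and 0.18. Because they were chosen by likeness over these same libraries, their lower level in Sirpa-KO follows from the choice. Gna12, a G protein alpha subunit, had 26.6 and 19.0 CPM in the shallow Sirpa-KO libraries, against 55.9, 72.7 and 52.1 CPM in the Sirpa-WT libraries. Cyp51, lanosterol demethylase of cholesterol synthesis, had 67.9 and 43.5 CPM in the shallow Sirpa-KO libraries, against 121, 134 and 104 CPM in the Sirpa-WT libraries. Nsdhl, a later enzyme of the same synthesis, had 67.9 and 51.7 CPM in the shallow Sirpa-KO libraries, against 182, 140 and 127 CPM in the Sirpa-WT libraries. In the deep library these genes had 40.0, 147 and 36.1 CPM, where Gsta2 had 2.64 CPM.

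Around Gsta2, 5 other protein-coding genes within 500 kilobases were tested and none was called by edgeR, with log2 fold changes of -0.57 to 0.20 (smallest adjusted p = 0.184). Around Gpx1, 13 were tested and 1 was called. That gene was Qrich1 (chr9:108517087-108560167), named here after its values were seen, with 88.5 and 84.3 CPM in the shallow Sirpa-KO libraries, against 31.6, 32.0 and 52.1 CPM in the Sirpa-WT libraries. Its log2 fold change was 1.05 ± 0.30 (SE; edgeR adjusted p = 0.0122), and the call was lost in 8 of 18 alternatives. No counted exon of the 10 genes overlapped a counted exon of another gene on either strand, so the lack of a strand option in the counting touches none of them through an overlap.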

How the data were processed

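Poly(A)-selected RNA libraries were made with a stranded kit, per the labels' protocols. The deposited values are counts of read pairs per gene: per the file headers, the authors assigned pairs to exons with featureCounts 1.5.1 and the Ensembl release 75 annotation (GRCm38), with options for paired ends but none for strand or for reads with several alignments. The submitters' processing notes also name STAR 2.6.0 and Subread. Total counts were 338824 to 411695 in 5 libraries and 29877270 in the sixth. Each library was given its group and replicate number by its title.

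The counts were read as deposited, and 37693 of 39179 genes were given a symbol by identifier from GENCODE M21. Genes were filtered with filterByExpr (minimum count 10), scaled by TMM and tested with edgeR 4.0.16 (glmQLFit with robust=TRUE, glmQLFTest, 2-sided) in R 4.3.3. The biological coefficient of variation was 7.25% over 5 libraries and 75.8% over 6. The test was run with and without Sirpa-KO replicate 1, and the second fit is the one described. Genes under the filter took values from a fit without it. Between shallow replicates of a group, chi-square over degrees of freedom was 1.18 to 1.64, above sampling noise. Each library was counted as a sample, although a spread of this size cannot show whether replicates were separate cultures. Alternatives were other scalings and filters, DESeq2 1.42.0, limma 3.58.1 voom, robust=FALSE, protein-coding genes alone, the replicate number as a block, leaving out each library, summing the genes with pseudogenes that share at least 20% of their own words with them, and removing a trend (lowess, span 0.3) on the ratio of Sirpa-KO replicate 1 to the other libraries. Shared sequence was measured as 25-base words of GENCODE M21 transcripts, and coding sequences came from the same source. The words were searched among genes of the count files that have such transcripts. Only the count of Gsta2 words found in no other gene was taken over all GENCODE M21 genes. The scripts were tested on simulated data.

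The 10 genes, the wider list, the fits and the markers were chosen with earlier results of these data known. DESeq2 was run without its independent filtering after its default was seen to leave Gsta2 and Gpx1 without an adjusted p; both versions are given. The count of calls over the 10 genes was also added after the data were seen. Beside the 10 genes, the text names list genes that were called, the most abundant gene of each role per length over the 5 shallow libraries, and the 3 genes nearest to the one with the smallest p; others were named after their values were seen. The study's single-cell libraries were not analysed here.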

Additional observations from a re-analysis of the deposited data

How the results depend on the processing

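Alternatives were run for the counts of calls and for each named gene, and the cause of each difference below was not tested unless the alternative itself shows it. Over 6 libraries no gene was called by edgeR, against 1 by DESeq2 with or without independent filtering and 1283 by limma voom (17 higher, 1266 lower); leaving out 1 library gave 0 to 322, with 322 reached without Sirpa-KO replicate 1. Without that library 322 genes were called (73 higher, 249 lower). DESeq2 gave 77 (8 higher, 69 lower) without independent filtering and 127 with it, protein-coding genes alone gave 196, removing the trend gave 109 (40 higher, 69 lower), all 6 libraries gave 0, and leaving out 1 further library gave 125 to 351 (125 and 127 with a single Sirpa-KO library, which is assumed to vary like the others). Scaling by library size alone gave 279 higher and 128 lower, with the median log2 fold change of all tested genes at 0.15 in place of 0.013. The wider list had 3 calls: 5 under library size alone (Taldo1 and Txnl1 added), 1 with DESeq2's independent filtering, 1 with the trend removed, 0 with all 6 libraries and 1 to 3 with a library left out. The 10 genes had 2 calls (1 to 2 with a library left out). That count was 1 with no filter, the 1 CPM filter, DESeq2 without independent filtering, the replicate block and the trend removed (Gpx1 lost in each), 0 with all 6 libraries, and 0 with DESeq2's independent filtering, which gave neither gene an adjusted p.

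Deviations from the group means showed no pairing by replicate number (correlation between -0.042 and 0.058). A weak pairing could be hidden by counting error at the shallow depth, so this check does not exclude one. With the replicate block 316 genes were called over 5 libraries and 0 over 6, the list kept 3 calls (G6pdx in place of Gpx1), and Gpx1 was at 0.94 (edgeR adjusted p = 0.169). Signs turned, always without a call, for Gstp1 with all 6 libraries (0.35), Gpx4 under the replicate block (-0.021) and without Sirpa-WT replicate 1 (-0.020), Prdx1 without Sirpa-KO replicate 2 (-0.023) and with pseudogenes summed (-0.010), and Sod1 under library size alone (0.030), without Sirpa-WT replicate 3 (0.056) and with its pseudogene summed (0.046). With 1 library left out, Gstp1 ran between -0.42 and -0.039, Gpx4 between -0.020 and 0.32, Prdx1 between -0.023 and 0.18 and Sod1 between -0.24 and 0.056. With the trend removed signs turned for Glrx3 (0.017) and Sqstm1 (-0.0056). Depth limits Gsta4, Gstm1 and Nqo1, which had 0 to 8 counts in the shallow libraries.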
